A study of Mus musculus with 6 samples.

Results

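The Notch pathway genes described here are the receptors *Notch1*, *Notch2* and *Notch3*, the ligands *Jag1*, *Jag2* and *Dll1*, and the bHLH repressor genes *Hes1*, *Hes6*, *Hey1* and *Heyl*, 10 genes taken by their symbols from the 54525 genes that were counted. Each symbol was listed once, and all 10 were among the 16290 genes with enough counts to be tested. RNA-seq was performed on wild type, untreated C2C12 cells, an established mouse myoblast line, in 3 libraries of myoblasts (D0) and 3 libraries of cultures after 5 days of differentiation (D5). Myoblasts were kept in medium with fetal bovine serum, and differentiation was induced in low-serum medium with horse serum. The labels give the cell type of all 6 samples as myoblasts, and the day separates the groups. All samples come from 1 cell line, and a D5 culture can hold unfused cells beside myotubes. The sources do not say whether the 3 samples of a day were grown separately, so the p-values measure the spread between these samples.

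Notch receptors sit in the cell membrane and are activated by ligands of the Jagged and Delta families on a neighbouring cell. After cleavage by an ADAM protease and by gamma-secretase, the intracellular part of the receptor enters the nucleus. There it joins RBPJ and a Mastermind protein to activate target genes, among the best known of which are *Hes1*, *Hey1* and *Heyl*. In skeletal muscle, Notch activity is known for holding satellite cells and myoblasts in an undifferentiated state. Only RNA was measured, so neither receptor cleavage nor ligand on the cell surface is covered by these values.

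Gene counts per library ran from 36555048 to 40895840 in myoblasts and from 25449759 to 25811300 in myotube cultures. ERCC spike-ins, synthetic RNAs added to the samples, took from 0.720% to 2.09% of all counts, with both extremes in D5 libraries. The 3 myoblast markers *Myod1*, *Myf5* and *Pax7* had summed levels from 339 to 356 CPM (counts scaled to a common library size of 1000000, with TMM factors) at D0 and from 154 to 160 CPM at D5. The 6 myotube markers *Myog*, *Mymk*, *Mymx*, *Myh3*, *Acta1* and *Ckm* were at 26.5 to 33.9 CPM in sum at D0 and at 9897 to 10579.6 CPM at D5, so the day labels match the libraries. The 5 markers of cycling cells *Mki67*, *Top2a*, *Cdk1*, *Ccnb1* and *Ccna2* were at 1738 to 1769 CPM in sum at D0 and at 52.2 to 62.3 CPM at D5, and every one of the 5 fell. Their part in the Notch pathway results was not tested, and in bulk RNA fewer cells of a type and less RNA per cell cannot be told apart. Among 6 markers of endothelial and mural cells, which use Notch genes themselves, the summed level ran from 21.4 to 23.1 CPM at D0 and from 45.1 to 46.7 CPM at D5. Most of it was *Cspg4*, which rose from a mean of 18.6 CPM at D0 to 45.4 CPM at D5, while *Kdr* and *Tek* fell. *Kdr* had 90, 118 and 92 counts at D0 and 5, 6 and 5 at D5. *Tek* had 30, 26 and 35 counts at D0 and 3, 5 and 12 at D5. *Pecam1*, *Cdh5* and *Rgs5* had at most 7, 3 and 3 counts in any library. Of 4 immune markers, *Ptprc* and *Adgre1* had at most 1 and 0 counts in any library, and *Itgam* had 0 at D0 and 10, 13 and 5 at D5. *Cd68* had 124, 130 and 123 counts at D0 and 57, 63 and 46 at D5. The summed level, mostly *Cd68*, ran from 3.05 to 3.31 CPM at D0 and from 2.05 to 3.12 CPM at D5. Of 4 adipocyte markers, *Adipoq* and *Plin1* had at most 1 count in any library, and the summed level, mostly *Pparg*, ran from 18.3 to 20.3 CPM at D0 and from 6.99 to 8.40 CPM at D5.

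Expression of all 10 genes differed between myoblasts and myotube cultures. *Dll1*, *Hes6*, *Jag1* and *Notch3* rose and *Hey1*, *Jag2*, *Heyl*, *Notch2*, *Hes1* and *Notch1* fell, with adjusted p-values under 0.05 in edgeR's quasi-likelihood test. This share has to be read against the series as a whole, since 82.9% of all genes tested passed the same threshold, 42.2% higher and 40.8% lower at D5. With a fold of at least 2 as a further condition, 2 members were higher (*Dll1*, *Hes6*) and 3 were lower (*Hey1*, *Jag2*, *Heyl*), where 19.3% of all genes were higher and 16.0% lower by that rule (35.3% in either direction). The median log2 fold change of the 10 genes was -0.37, and that of all genes tested was 0.0022. Libraries of D0 and D5 did not overlap for any member, as was the case for 83.3% of all genes tested (42.2% with every D5 library above and 41.1% with every D5 library below). The counts of members are therefore close to the background for the threshold alone, and the sizes and directions of single genes are given below.

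**Figure D1:**
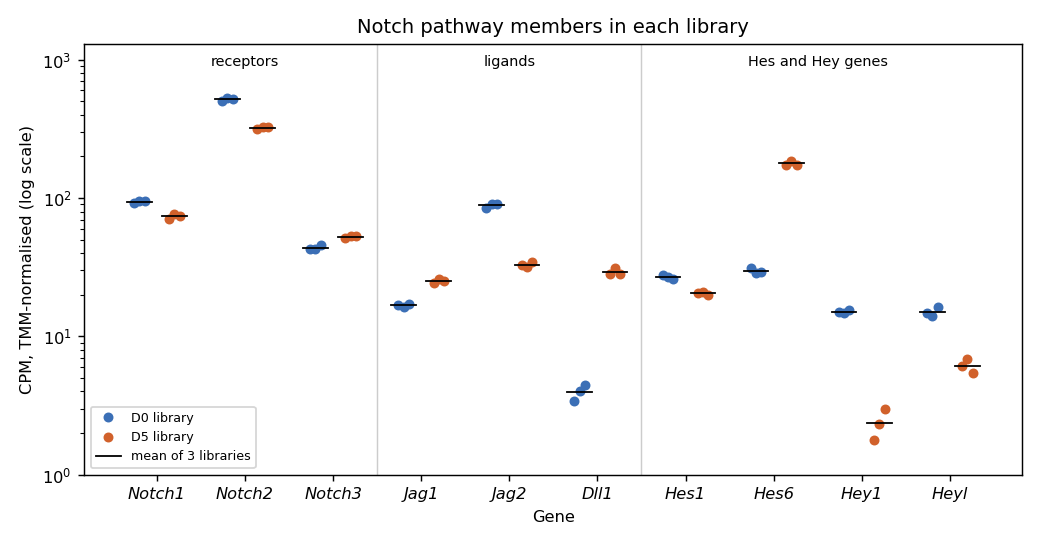
Level of each of the 10 genes in each library, in TMM-normalised CPM on a log axis, for 3 D0 libraries (blue) and 3 D5 libraries (orange), with the mean as a black line. *Dll1* and *Hes6* stand higher in all 3 D5 libraries and *Jag2*, *Hey1* and *Heyl* lower, with *Notch2* the highest gene at D0 (518 CPM).

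Among the receptors, *Notch2* fell most and *Notch3* rose slightly. *Notch2* (ENSMUSG00000027878.11, chromosome 3 of GRCm38 from 98013527 to 98150361, plus strand) had 506, 528 and 519 CPM in the D0 libraries and 316, 324 and 327 CPM in the D5 libraries. The D5 libraries were all lower than the D0 libraries, at 62.2% of the D0 mean (log2 fold change -0.69, standard error 0.032, adjusted p = 1.9e-18 in edgeR's test). *Notch1* (ENSMUSG00000026923.15, chromosome 2 from 26457903 to 26516663, minus strand), the receptor with the next highest level in CPM, had 91.7, 95.7 and 94.9 CPM at D0 and 71.0, 77.2 and 74.0 CPM at D5. The groups did not overlap, and the fall was small (log2 fold change -0.35, standard error 0.038, adjusted p = 1.4e-09 in edgeR's test). *Notch3* (ENSMUSG00000038146.7, chromosome 17 from 32120820 to 32166852, minus strand) had 42.7, 42.7 and 45.4 CPM at D0 and 51.4, 53.2 and 53.3 CPM at D5. Its position and exonic length are those of a later version of the gene, ENSMUSG00000038146.8. Its D5 libraries lay above its D0 libraries by a narrow gap (log2 fold change 0.27, standard error 0.043, adjusted p = 1.3e-06 in edgeR's test). This direction depended on the scaling, since *Notch3* stood at -0.30 on the log2 scale (adjusted p = 0.68, edgeR) when libraries were scaled to the ERCC spike-ins. Scaled in that way *Notch1* was at -0.90 (adjusted p = 0.17) and *Notch2* at -1.25 (adjusted p = 0.047, both in edgeR's test).

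All 3 receptor genes share exonic sequence with another annotated gene, 9.76% of the exonic length of *Notch1*, 5.02% of *Notch2* and 6.03% of *Notch3*. The strand setting of the counting and its treatment of reads in shared sequence are not given in the sources used here. Reads from overlapping genes may therefore have been mixed or left uncounted. The counts of the partners do not show how many reads were left out. The partners of *Notch1* and *Notch3*, on the opposite strand, had at most 38 counts in any library. *Gm42820*, on the same strand as *Notch2*, had 214, 242 and 291 counts at D0 and 67, 62 and 85 at D5, few beside the 18972, 22196 and 20913 counts of *Notch2* at D0 and 7933, 7982 and 8127 at D5.

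*Dll1* and *Jag2* changed by more than any receptor, in opposite directions, and *Jag1* rose by less. *Dll1* (ENSMUSG00000014773.13, chromosome 17 from 15367354 to 15376872, minus strand), a Delta-type ligand, drew 128, 170 and 178 counts in myoblasts and 706, 772 and 700 in myotube cultures. This was 3.42, 4.04 and 4.42 CPM at D0 and 28.1, 31.3 and 28.1 CPM at D5. The lowest D5 library was far above the highest D0 library, and the D5 mean was 7.37 times the D0 mean (log2 fold change 2.88, standard error 0.079, adjusted p = 1.8e-24 in edgeR's test). Of the exonic length of *Dll1*, 20.6% is shared with *A930024N18Rik* on the opposite strand. That gene had 7, 6 and 5 counts at D0 and 18, 20 and 21 at D5, few beside those of *Dll1* on either day. Reads left uncounted in the shared sequence would not show in these counts.

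*Jag2* (ENSMUSG00000002799.6, chromosome 12 from 112907819 to 112929776, minus strand), a Jagged ligand, had 85.0, 91.2 and 90.1 CPM in the D0 libraries and 32.9, 31.7 and 34.4 CPM in the D5 libraries. Its D5 libraries all lay well below the D0 libraries, at 37.2% of the D0 mean (log2 fold change -1.43, standard error 0.044, adjusted p = 3.4e-23 in edgeR's test). *Jag1* (ENSMUSG00000027276.7, chromosome 2 from 137081456 to 137116644, minus strand), the other Jagged ligand, had 17.0, 16.5 and 17.2 CPM at D0 and 24.2, 25.8 and 25.1 CPM at D5. It was higher in every D5 library, by 1.48 times (log2 fold change 0.57, standard error 0.055, adjusted p = 8.4e-11 in edgeR's test). Scaled to the ERCC spike-ins, *Jag1* was at 0.0084 on the log2 scale (adjusted p = 0.99, edgeR), whereas *Dll1* stayed at 2.33 (adjusted p = 1.4e-04) and *Jag2* at -2.02 (adjusted p = 0.0010).

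The largest rise among the Hes and Hey genes was that of *Hes6*, and the other 3 fell. *Hes6* (ENSMUSG00000067071.8, chromosome 1 from 91411483 to 91414038, minus strand) encodes a divergent Hes protein that is known to oppose Hes1. Whether *Hes6* answers to Notch in these cells was not tested. It had 31.0, 28.8 and 29.3 CPM in the D0 libraries and 175, 185 and 174 CPM in the D5 libraries. All D5 libraries were far above all D0 libraries, with a D5 mean 5.99 times the D0 mean (log2 fold change 2.58, standard error 0.040, adjusted p = 6.5e-31 in edgeR's test). *Hes1* (ENSMUSG00000022528.8, chromosome 16 from 30064384 to 30067796, plus strand), a classical Notch target and repressor, had 27.6, 26.7 and 26.0 CPM at D0 and 20.5, 20.9 and 19.9 CPM at D5. The groups did not overlap, and the level at D5 was 76.4% of that at D0 (log2 fold change -0.39, standard error 0.053, adjusted p = 9.7e-08 in edgeR's test). With scaling to the ERCC spike-ins the log2 fold change of *Hes1* was -0.94 (adjusted p = 0.15 in edgeR's test), and that of *Hes6* was 2.04 (adjusted p = 8.7e-04).

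RefSeq lists a pair of transcription starts for *Hes6*, and the 250 bases before each are shown because *Hes6* had the highest level per length of all members at D5. Both windows lie on the minus strand of GRCm38.p6, neither shares a base with an annotated exon, and the second lies inside the gene. Capitals mark CAGCTG, the E-box form that myogenic bHLH factors are known to bind, at -171 to -166 before the upstream start and at -150 to -145 before the internal start.
Hes6 upstream start, chr1:91414039-91414288: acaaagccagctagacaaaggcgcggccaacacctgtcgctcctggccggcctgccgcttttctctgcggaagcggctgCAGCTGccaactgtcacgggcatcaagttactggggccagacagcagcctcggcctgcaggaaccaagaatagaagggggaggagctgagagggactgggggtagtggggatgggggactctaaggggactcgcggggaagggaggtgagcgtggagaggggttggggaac
Hes6 internal start, chr1:91413223-91413472: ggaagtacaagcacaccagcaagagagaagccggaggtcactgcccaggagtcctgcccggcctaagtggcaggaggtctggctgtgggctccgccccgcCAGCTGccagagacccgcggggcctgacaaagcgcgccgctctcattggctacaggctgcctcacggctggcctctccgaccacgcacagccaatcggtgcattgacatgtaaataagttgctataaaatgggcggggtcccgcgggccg

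Starts of 7 of the 10 members were found in the RefSeq table, in 9 windows, and *Hes1*, *Hey1* and *Heyl* were not among them. CAGCTG, which reads the same on both strands, was in 4 of the 9 windows and in 13% of the 32817 windows of all genes. The 4 were the pair of *Hes6* and 1 each of *Dll1* and *Jag1*. That *Dll1* window lay wholly in annotated exons (250 bases), as did the other *Dll1* window and that of *Jag2*. The *Jag1* window had 124 bases in exons. For the *Dll1* window with CAGCTG and the *Notch3* window, the first bases after the start were in no annotated transcript of the gene. TGGGAA, the core that RBPJ is known to bind, was in 0 of the 9 windows on either strand and in 21.6% of all windows. CACNAG, the N-box bound by Hes proteins, was in 4 of the 9 windows (*Notch1*, *Notch2*, *Notch3* and the internal start of *Hes6*) and in 36.7% of all windows on either strand. CACGTG was in 0 of the 9 windows and in 6.0% of all windows. None of these matches overlapped another in the *Hes6* windows, and a match describes the sequence only.

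*Hey1* (ENSMUSG00000040289.8, chromosome 3 from 8663359 to 8667256, minus strand), a Hairy-related repressor induced by Notch in many tissues, fell the most of all 10 genes. Its counts were 562, 624 and 627 in myoblasts and 45, 57 and 74 after differentiation. In CPM this was 15.0, 14.8 and 15.6 at D0 and 1.79, 2.31 and 2.97 at D5, with D5 replicate 3 the highest of the low group. The D5 mean was 15.6% of the D0 mean (log2 fold change -2.68, standard error 0.11, adjusted p = 4.6e-20 in edgeR's test). *Heyl* (ENSMUSG00000032744.4, chromosome 4 from 123233556 to 123249875, plus strand), a related repressor that is also known as a Notch target, had 14.8, 13.9 and 16.3 CPM at D0 and 6.13, 6.86 and 5.47 CPM at D5. It was lower in every D5 library, at 41.0% of the D0 mean (log2 fold change -1.29, standard error 0.087, adjusted p = 2.0e-14 in edgeR's test). Scaled to the ERCC spike-ins, *Hey1* was at -3.33 (adjusted p = 9.5e-08) and *Heyl* at -1.82 (adjusted p = 0.0036, both in edgeR's test).

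*Jag1*, *Jag2*, *Hes1*, *Hes6*, *Hey1* and *Heyl* share no exonic base with another annotated gene, and 0% of the 50-base stretches of their transcripts occur in transcripts of another gene. For the other members this share was 9.11% in *Notch1*, 3.75% in *Notch2*, 4.93% in *Notch3* and 16.1% in *Dll1*. The genes that hold those stretches are the overlapping ones and, for *Notch3*, *Gm30232*, and no member shares one with another member.

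**Figure D2:**
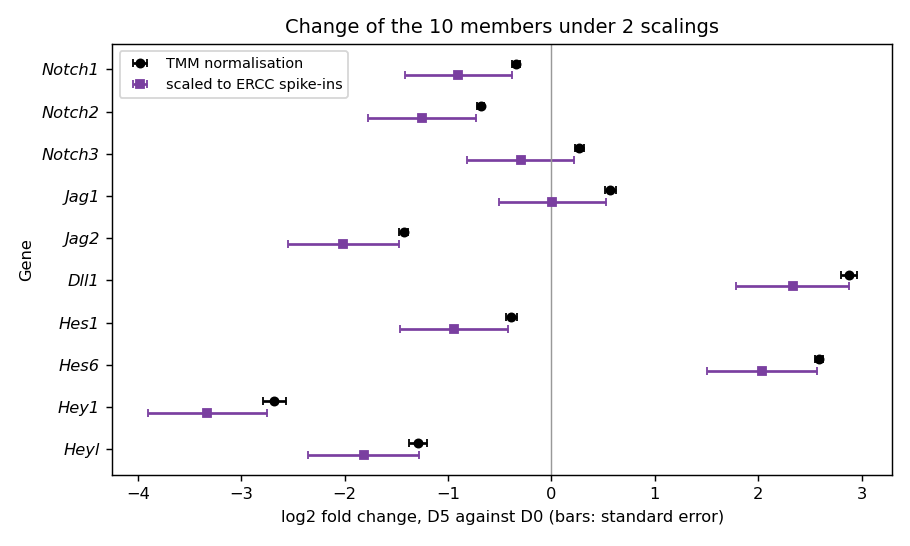
Log2 fold change of each of the 10 genes at D5 against D0 with its standard error, after TMM normalisation (black circles) and with libraries scaled to the ERCC spike-ins (purple squares). The spike-in scaling moves every gene to the left. *Notch3*, from 0.27 to -0.30, is the only member that crosses 0, and *Jag1* comes to lie next to it at 0.0084.

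The share of spike-in counts in the D5 libraries ran from 0.720% to 2.09%, a spread that enters the spike-in scaling. Over all genes tested, the median log2 fold change was 0.0022 after TMM normalisation and -0.58 with scaling to the spike-ins, and 49.2% against 67.4% of the calls were lower at D5. *Notch3* and *Jag1* lay above that median under both scalings. This could hardly have come out otherwise, since a change of library scaling shifts all genes by a like amount. With the spike-in scaling their adjusted p-values were 0.68 and 0.99 in edgeR's test. After spike-in scaling 2 members were called higher (*Dll1*, *Hes6*) and 4 lower (*Notch2*, *Jag2*, *Hey1*, *Heyl*), and *Notch1*, *Notch3*, *Jag1* and *Hes1* were past the threshold in neither direction. Among all genes 5560 passed the threshold under that scaling, against 13510 after TMM normalisation.

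A ratio of counts of a pair of members within a library does not depend on the scaling of libraries, and 6 such ratios were compared. With 3 libraries on each day the smallest two-sided p of an exact permutation test is 0.1, and all 6 ratios reached it, with no overlap between D0 and D5. For *Notch3* to *Notch1*, *Jag2* to *Jag1* and *Hes6* to *Hes1*, the genes of the pair moved in opposite directions without overlap. The outcome of these ratios was therefore fixed by the values given above. The p-values describe overlap only, and ratios of other gene pairs were not compared. The log2 ratio of *Hes6* to *Hes1* was 0.17, 0.11 and 0.17 in the D0 libraries and 3.09, 3.15 and 3.13 in the D5 libraries. This ratio of counts, which is not per length, was 7.84 times higher at D5, the largest change of the 6. The log2 ratio of *Dll1* to *Jag1* was -2.31, -2.02 and -1.96 at D0 and 0.21, 0.28 and 0.17 at D5, a 4.98-fold higher ratio. The log2 ratio of *Jag2* to *Jag1* was 2.32, 2.47 and 2.39 at D0 and 0.44, 0.30 and 0.46 at D5, a difference of -2.00. The excess of *Jag2* counts over *Jag1* counts was thus smaller at D5 whichever scaling was used.

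For the Hairy-related genes, the log2 ratio of *Heyl* to *Hey1* was -0.018, -0.091 and 0.065 at D0 and 1.76, 1.56 and 0.87 at D5. The ratio was higher in every D5 library, and these libraries were spread (SD 0.47, n = 3) with D5 replicate 3 the lowest. Among receptors, the log2 ratio of *Notch3* to *Notch1* was -1.10, -1.16 and -1.06 at D0 and -0.47, -0.54 and -0.47 at D5. That of *Notch2* to *Notch1* was 2.46, 2.46 and 2.45 at D0 and 2.15, 2.07 and 2.14 at D5, the smallest of the 6 differences at -0.34.

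**Figure D3:**
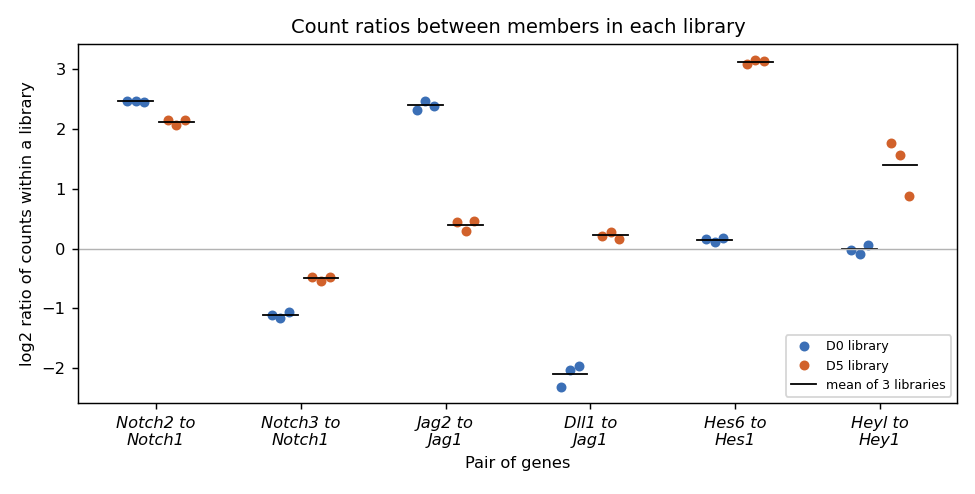
Log2 ratio of the counts of a pair of members within each library, for D0 (blue) and D5 (orange) libraries, with the mean of 3 libraries as a black line. No pair overlaps between days, and the ratio of *Hes6* to *Hes1* moves the most, from a mean of 0.15 to 3.12.

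Levels of different genes were compared per length, in TPM (counts divided by exonic length and scaled to a sum of 1000000, with no TMM factor). At D0 the order was *Notch2* (166 ± 5.59 TPM), *Hes6* (56.8 ± 1.59), *Hes1* (45.4 ± 0.728), *Jag2* (44.1 ± 2.24), *Notch1* (22.9 ± 0.827), *Notch3* (18.7 ± 0.918), *Hey1* (16.0 ± 0.596), *Heyl* (10.2 ± 0.898), *Jag1* (9.80 to 10.4 over the 3 libraries) and *Dll1* (3.25 ± 0.464), in TPM with the SD of 3 libraries. *Hes1* and *Jag2* were neighbours whose libraries overlapped, as were *Heyl* and *Jag1*. At D5 *Hes6* came first (305 ± 7.53 TPM), followed by *Notch2* (92.7 ± 0.897), *Hes1* (31.1 ± 0.951), *Dll1* (21.5 ± 1.08), *Notch3* (20.2 ± 0.141), *Notch1* (16.1 ± 0.375), *Jag2* (14.7 ± 0.722), *Jag1* (13.3 ± 0.166), *Heyl* (3.73 ± 0.403) and *Hey1* (2.24 ± 0.538 TPM, SD, n = 3 each). No neighbours overlapped at D5, although the lowest library of *Dll1* (20.6 TPM) and the highest of *Notch3* (20.3 TPM) were close. *Dll1* moved from the last place to the fourth, and *Hey1* from the seventh to the last.

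Seen as shares within a role, *Notch2* made up from 79.7% to 80.3% of the summed TPM of the 3 receptors at D0 and 71.8% ± 0.337 at D5 (SD, n = 3). The share of *Notch3* was 8.99% ± 0.314 at D0 and 15.6% ± 0.0216 at D5 (SD, n = 3 each). The summed level of the receptors was 208 ± 7.01 TPM at D0 and 129 ± 0.747 TPM at D5 (SD, n = 3 each). *Jag2* was the main ligand in myoblasts, with 76.9% ± 0.644 of the summed TPM of the 3 ligands, and had 29.7% ± 1.76 of it at D5 (SD, n = 3 each). *Dll1* went from 5.65% ± 0.552 to 43.3% ± 1.74 of the ligands (SD, n = 3 each). The ligands in sum were at 57.4 ± 2.79 TPM at D0 and 49.5 ± 0.511 TPM at D5 (SD, n = 3 each). In TPM their mixture thus changed more than their sum. The summed levels depend on the scaling of libraries, as the shares do not, and sums scaled to the spike-ins were not computed. Among the Hes and Hey genes, *Hes6* had 44.2% ± 0.610 of the summed TPM at D0 and 89.2% ± 0.0943 at D5 (SD, n = 3 each). *Hes1* had 35.4% ± 0.791 and 9.09% ± 0.189, and *Hey1* 12.5% ± 0.457 and 0.655% ± 0.171 (SD, n = 3 each).

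**Figure D4:**
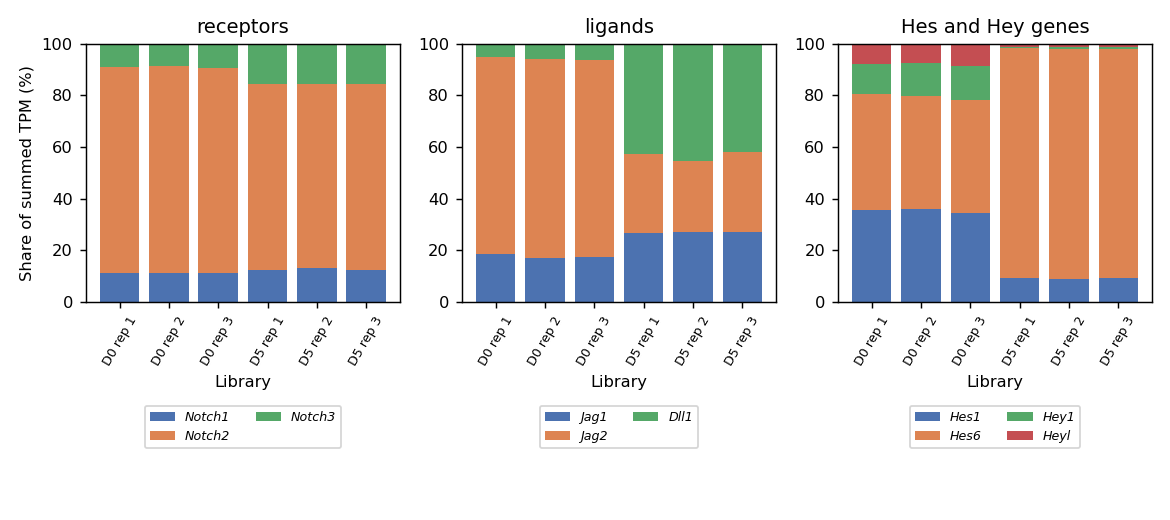
Share of each gene in the summed TPM of its role (receptors, ligands, Hes and Hey genes) in each of the 6 libraries, as stacked bars from 0 to 100%. *Notch2* leads the receptors on both days, the ligands turn from mostly *Jag2* (76.9% at D0) to a mixture led by *Dll1* (43.3% at D5), and *Hes6* takes 89.2% of the Hes and Hey genes at D5.

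Beside the members, 47 other genes of the pathway were listed, of which 38 were tested. Of these, 14 were higher and 15 lower at D5 in edgeR's test, against 42.2% and 40.8% of all genes, and 9 were not called. By the rule with a fold of at least 2, 8 of the 38 were higher and 2 lower, beside 19.3% and 16.0% of all genes tested. The median log2 fold change over the 38 was 0.028. With spike-in scaling 2 were called higher (*Neurl1a*, *Nrarp*) and 3 lower (*Hey2*, *Lfng*, *Adam10*).

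Of the 5 other receptors and ligands, 2 were tested and neither was called, *Notch4* (adjusted p = 0.29) and *Dlk2* (adjusted p = 0.59, both in edgeR's test). *Notch4*, the receptor known from endothelium, had 24, 19 and 25 counts at D0 and 13, 8 and 12 at D5, and the groups overlapped in CPM. *Dlk1*, a Delta-like protein, had 0 counts in every library, which allows up to 0.122 CPM in the shallowest library at 3 counts. *Dll3* and *Dll4* had at most 4 and 5 counts and were not tested. Of the 5 other Hes and Hey genes, *Hes2*, *Hes3* and *Hes5* had at most 1, 1 and 0 counts in any library and *Hes7* was not called. *Hey2*, a close relative of *Hey1*, had 34, 48 and 48 counts at D0 and 1, 7 and 5 at D5. Like the 2 measured Hey members it was lower in every D5 library, at -2.61 on the log2 scale (standard error 0.37, adjusted p = 1.8e-07, edgeR).

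Among the sugar transferases that act on Notch receptors, the Fringe enzymes influence which ligands a receptor answers to. Of the 5 sugar transferases listed, 4 were tested and were lower, as were 40.8% of all genes tested. *Lfng*, the lunatic fringe enzyme, had 598, 706 and 688 counts at D0 and 92, 110 and 116 at D5. In CPM it went from 16.6 ± 0.582 to 4.26 ± 0.529 (SD, n = 3 each), which edgeR's test put at -1.96 on the log2 scale (adjusted p = 4.8e-19). *Pofut1*, *Rfng* and *Poglut1* had log2 fold changes of -0.31, -0.16 and -0.14, and the calls of *Rfng* and *Poglut1* were lost with DESeq2. The call of *Rfng* was also lost without D5 replicate 1 (adjusted p = 0.066) or D5 replicate 2 (adjusted p = 0.091), and that of *Poglut1* without D0 replicate 2 (adjusted p = 0.088) or D5 replicate 3 (adjusted p = 0.13, all in edgeR's test). *Mfng* had 1, 0 and 1 counts at D0 and 4, 9 and 7 at D5 and fell under the filter on low counts. Without that filter it was called higher (adjusted p = 4.4e-05 in edgeR's test), as it was with DESeq2 (adjusted p = 0.0042).

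Of the 10 proteases and gamma-secretase subunits, 4 were higher and 4 lower, where 42.2% and 40.8% of all genes tested were. *Psen2*, a catalytic presenilin, had 6.78 ± 0.480 CPM in myoblasts and 22.8 ± 0.411 CPM in myotube cultures (SD, n = 3 each). In edgeR's test this was 1.75 on the log2 scale (adjusted p = 2.1e-20). *Aph1c*, a subunit with few reads, had 18, 20 and 16 counts at D0 and 42, 44 and 40 at D5, which edgeR's test put at 1.90 on the log2 scale (adjusted p = 1.2e-08). *Adam10*, the main protease that cuts ligand-bound receptors, fell. It had 154 ± 4.41 CPM in myoblasts and 94.7 ± 3.36 CPM in myotube cultures (SD, n = 3 each). In edgeR's test this was -0.70 on the log2 scale (adjusted p = 2.4e-17). *Ncstn* (0.14) and *Psenen* (0.48) were also called higher, and *Aph1b* (-0.57), *Furin* (-0.36) and *Aph1a* (-0.12) lower, in log2 fold change. The call of *Ncstn* was lost with total counts (adjusted p = 0.18) and without the filter (adjusted p = 0.080), and that of *Aph1a* without D0 replicate 1 (adjusted p = 0.086) or D5 replicate 2 (adjusted p = 0.26, all in edgeR's test), and with DESeq2 (adjusted p = 0.097). With scaling to the spike-ins *Ncstn* was at -0.42 and *Psenen* at -0.050, on the other side of 0.

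Of the 4 ubiquitin ligases that act on ligands, 3 were higher and 1 lower, where 42.2% and 40.8% of all genes tested were. *Neurl1a*, a Neuralized ligase, had 63.3 ± 0.589 CPM in myoblasts and 227 ± 6.29 CPM in myotube cultures (SD, n = 3 each). In edgeR's test this was 1.84 on the log2 scale (adjusted p = 9.5e-29). *Mib1* and *Mib2*, the Mind bomb ligases, had log2 fold changes of 0.49 and 0.62, and *Neurl1b* was lower at -0.28. Scaled to the ERCC spike-ins *Mib1* was at -0.064 (adjusted p = 0.94 in edgeR's test).

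In the nuclear complex, the DNA-binding protein and its coactivators did not move together. *Rbpj* is the gene through which all Notch receptors act. It had 49.9 ± 0.421 CPM in myoblasts and 33.5 ± 2.07 CPM in myotube cultures (SD, n = 3 each). In edgeR's test this was -0.57 on the log2 scale (adjusted p = 1.8e-12). *Maml2* rose from 10.4 ± 0.550 to 34.0 ± 0.946 CPM and *Maml3* from 12.7 ± 0.954 to 44.3 ± 0.991 CPM (SD, n = 3 each), log2 fold changes of 1.70 and 1.80. *Maml1*, the third Mastermind gene, was lower at -0.26, as was the corepressor *Spen* (-0.14), and *Snw1* was higher at 0.62. The counts of *Snw1* are uncertain, since 44.2% of its exonic length is shared with *Slirp* on the opposite strand. *Rbpjl* had 0 counts in every library.

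The list of negative regulators held 10 genes, among them Deltex genes, and whether each of them restrains Notch in these cells was not measured. Of these, 9 were tested, and 4 were higher and 1 lower, where 42.2% and 40.8% of all genes tested were. *Nrarp*, a feedback inhibitor known to be induced by Notch, had 5, 5 and 10 counts at D0 and 18, 17 and 25 at D5. It was higher in every D5 library but rests on few reads (log2 fold change 2.24, standard error 0.35, adjusted p = 1.3e-06 in edgeR's test). Of its exonic length, 79.4% is shared with *Gm38287* on the opposite strand, which had 0 counts in every library, so the counts of *Nrarp* are uncertain. *Dtx3l*, a Deltex-type ligase, had 5.22 ± 0.718 CPM in myoblasts and 17.9 ± 1.12 CPM in myotube cultures (SD, n = 3 each). This was 1.78 on the log2 scale. *Fbxw7*, the ligase that marks the cleaved receptor for destruction, had 27.8 ± 1.04 and 56.1 ± 1.13 CPM (SD, n = 3 each). Its log2 fold change of 1.01 was at the edge of the rule for a fold of 2, and fell under it in several alternatives. It was 0.93 with total counts, 0.96 without the filter on low counts, 0.98 without D0 replicate 2, 0.99 without D0 replicate 3 and 0.996 with upper-quartile factors, beside 0.45 with the spike-in scaling. *Numb*, *Numbl*, *Itch* and *Dtx3* were not called, *Dtx2* was higher (0.60), *Dtx4* lower (-0.39), and *Dtx1* had at most 1 count in any library. *Numbl* was called lower with total counts, at -0.16 (adjusted p = 0.0029), and without the filter on low counts, at -0.13 (adjusted p = 0.027, both in edgeR's test).

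**Figure D5:**
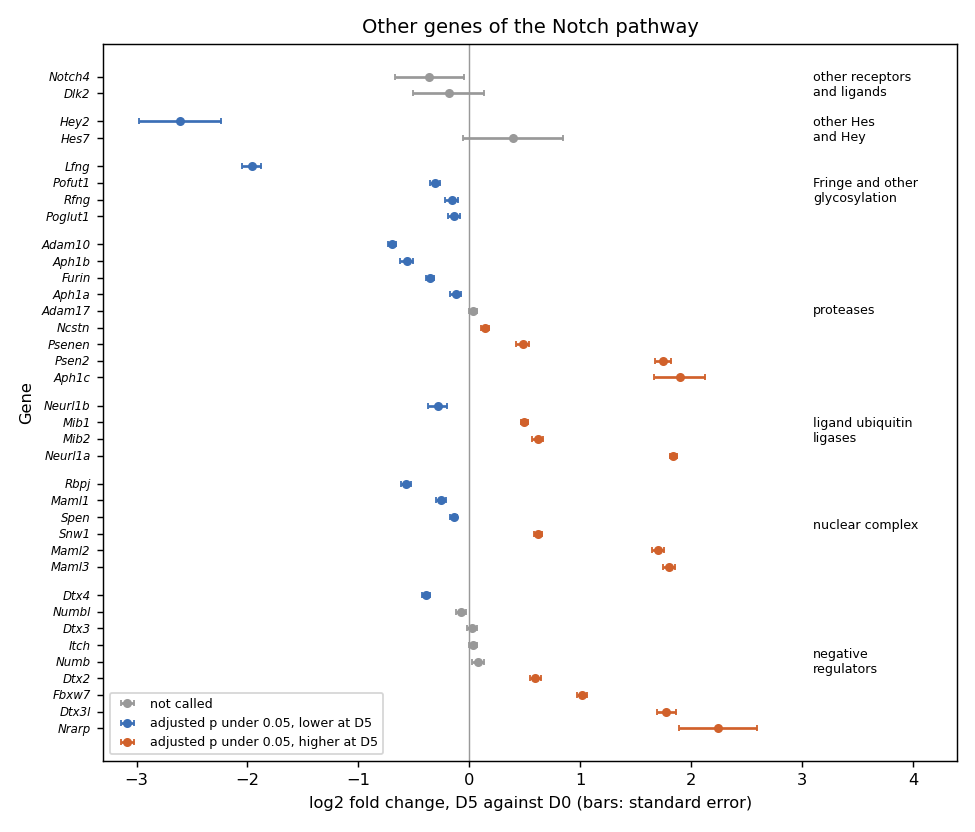
Log2 fold change at D5 against D0 with its standard error for other pathway genes that were tested, grouped by role (orange, higher; blue, lower; grey, not called). *Hey2* and *Lfng* lie furthest to the left (-2.61 and -1.96), and *Nrarp* furthest to the right (2.24).

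The genes whose pattern over the 6 libraries was most like that of *Dll1*, the member with the largest rise, were *Spire2*, *Ndrg2* and *9330102E08Rik*. Their distances were 0.18, 0.19 and 0.23 on the scale of centred log2 CPM, among 11877 genes whose mean count reached 100 on either day. The log2 fold changes were 3.03 for *Spire2*, 2.80 for *Ndrg2* and 2.98 for *9330102E08Rik*. Closest to *Hey1*, the member with the largest fall, were *Gm10660*, *Rad54b* and *Rbl1*, at distances of 0.20, 0.25 and 0.28. With 3 libraries on each of 2 days, this likeness is mostly a like size of change between days.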

How the data were processed

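RNA-seq was performed by the authors on C2C12 cells in 3 samples at D0 and 3 at D5. The deposited counts are whole numbers of reads per gene from featureCounts on GRCm38 (mm10), without normalization. The labels name Tophat2 and NGS-QC-Toolkit, and the methods of the study name HISAT2 and FastQC. The annotation release, strand setting and handling of multi-mapping reads are not given in the sources used here. The submitters' processing notes name DESeq2 1.6.3.

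Rows of 92 ERCC spike-ins and an unnamed row equal to the column total (100% of the counts of named rows) entered neither library sizes nor tests. TMM factors, CPM and the quasi-likelihood test were computed in edgeR 4.0.16 (R 4.3.3) after filterByExpr, with Benjamini-Hochberg adjustment over 16290 genes and a threshold of 0.05. The standard error was obtained by dividing the size of each log2 fold change by the square root of its F value. At least 2-fold means an absolute log2 fold change of at least 1. Genes with at most 3 counts in every library were treated as not detected, a limit that covers counting error only. Exonic lengths and positions came from GENCODE M21, which matched 99.8% of the listed genes, and promoter sequences from RefSeq on GRCm38.p6. Ratios used counts plus 0.5 and exact permutation tests in scipy 1.17.1. Likeness is the Euclidean distance between centred log2 CPM values (prior count 2). The scripts were tested on simulated data. Replicates differed by more than sampling noise (chi-square over degrees of freedom of 2.28 to 3.71), which does not show separate growth of the samples. Each library was treated as 1 sample.

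Named are the 10 members, and of the other pathway genes those at least 2-fold changed or not detected; further ones were named after their values were seen. Some genes of the list enter its counts but are not reported here. Members and lists were chosen with earlier results of these data known. The alternatives were DESeq2 1.42.0, upper-quartile factors, total counts, scaling to the spike-ins, no filter, a minimum of 10 counts per library, leaving out each library, and the replicate number as a block.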

Additional observations from a re-analysis of the deposited data

How the results depend on the processing

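Under all alternatives except scaling to the ERCC spike-ins, every one of the 10 members kept its direction and its call, with 4 higher and 6 lower, 2 at least 2-fold higher and 3 at least 2-fold lower. Scaling to the ERCC spike-ins gave 2 members higher, 4 lower and 4 at least 2-fold lower, 2 other pathway genes higher and 3 lower, 5560 genes called in all, and turned *Notch3* to -0.30, with larger standard errors throughout (0.52 for *Notch3*, in place of 0.043). The cause was not tested. Leaving out each library moved *Hey1* between -2.88 and -2.51, *Heyl* between -1.37 and -1.21 and *Dll1* between 2.77 and 2.95 in log2 fold change, and the difference in the log2 ratio of *Heyl* to *Hey1* between 1.23 and 1.68. The other 5 ratios kept their sign as well, also with 1 added to the counts in place of 0.5. Other pathway genes called lower numbered from 12 to 16 and those called higher from 13 to 15 without the spike-in scaling.

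With the replicate number as a block, 13558 genes were called, and the 10 members kept their calls (*Hes6* at 2.58, *Hey1* at -2.68). The numbers were not taken to pair the samples, since libraries of the same number had correlations of only 0.033, 0.064 and 0.028 in their deviations from the group means, although each library correlated best with its own number. Genes at a few counts (*Nrarp*, *Hey2*, *Aph1c*, *Notch4*) are limited by depth, and *Nrarp* also by its overlap with another gene. Calls of *Rfng*, *Poglut1*, *Ncstn* and *Aph1a*, all under 0.2 in log2 fold change, were lost under some alternatives, whereas *Spen*, at -0.14, lost its call only with the spike-in scaling.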
